A study of Mus musculus with 20 samples.

Results

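Foxk2 knockdown was studied in 3T3-L1 adipocytes, fat cells obtained in culture from a preadipocyte line of Swiss mice. The comparison holds 2 libraries from cells with Foxk2 shRNA and 2 from cells with a scrambled shRNA, 4 of the 20 RNA sequencing libraries of the series. Members were the 13022 of 48440 listed genes that reached 0.5 RPKM (reads scaled to exon length in kilobases and to the total of assigned reads) in at least 2 of these 4 libraries. Set beside it were Foxk1 knockdown with Foxk1 shRNA (3 libraries, 3 scrambled shRNA controls) and constitutive overexpression of FOXK2 (2 libraries, 2 empty vector controls). All groups, controls included, had been differentiated with troglitazone (10 µM), an activator of PPARgamma, together with dexamethasone (1 µM), insulin (5 µg/ml) and isobutyl methylxanthine (0.5 mM), and had been moved to insulin alone on day 4 and to growth medium on day 6. How many shRNAs were used, whether cells were pooled or cloned, and the day of harvest are not given in the sources used here. Since no label states that the replicates came from different cultures, each p-value reflects only how these libraries varied, and that variation may be technical.

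Foxk1 and Foxk2 encode forkhead transcription factors that bind DNA around the sequence GTAAACA and recruit the Sin3 corepressor, and both are known to control genes of glucose use in fat and muscle cells. Fat cell differentiation takes a fibroblast-like precursor, which makes collagen and other matrix, to a cell that takes up glucose under insulin, builds fatty acids and stores triglyceride. Genes of both states were therefore described here, together with those of mitochondria, signalling and protein turnover.

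Depth was 31378224 and 34535866 reads in knockdown and 34135185 and 33278832 reads in control libraries. The median SD of a gene between replicates was 0.050 in knockdown and 0.0381 in control libraries on the log2 scale. Of the 12 adipocyte markers checked, all were expressed: Pparg, the master regulator of fat cells, had 112 and 115 RPKM in knockdown and 115 and 118 RPKM in control cells, and the summed markers gave 13649 and 13297 RPKM in knockdown, against 15208 and 15294 RPKM in control libraries. The 11 fibroblast or preadipocyte markers summed to 1024 and 987 RPKM in knockdown, against 355 and 356 RPKM in control libraries, with Cd34 below 0.5 RPKM throughout. Of 8 macrophage markers, 3 were at 0 in all 4 libraries and the sum was 3.35 and 3.79 RPKM in knockdown, against 1.98 and 1.92 RPKM in control libraries, most of it Cd68. Endothelial, skeletal muscle and epithelial markers summed to between 0.171 and 1.23 RPKM. In bulk RNA, more cells that stayed fibroblast-like and more fibroblast RNA per cell cannot be told apart.

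Foxk2 itself (ENSMUSG00000039275.9, mm10 chromosome 11, 121259990 to 121309896, plus strand) had 3.25 and 3.29 RPKM in knockdown libraries, against 13.1 and 12.7 RPKM in control libraries. Both knockdown libraries lay far below both controls, and means were 3.27 ± 0.0271 and 12.9 ± 0.282 RPKM (SD, n = 2 each), so that 0.253 of the control level was left (log2 fold change -1.83 ± 0.05, adjusted p = 3.32e-12; limma on log2(RPKM + 0.5), Benjamini-Hochberg over all 13022 genes, as for every adjusted p here; ± on a log2 fold change is its SE). The paralogue Foxk1 had 12.8 and 12.6 RPKM in knockdown libraries, against 10.7 and 9.79 RPKM in control libraries, and rose by 0.30 ± 0.068 (adjusted p = 0.00214). That call was lost once the dependence on exon length and on GC content was removed. The list of 29 Foxk family members and Sin3 or BAP1 complex partners held 8 genes that rose, with Foxk2 the only fall, and its median was 0.09. The share higher, 27.6%, was near the 22.1% of all genes tested, and the share called, 31.0%, was below their 42%. Dvl2, a Dishevelled protein known to bind FOXK factors, rose by 0.35 ± 0.044, the chromatin regulator gene Asxl1 by 0.27 ± 0.055 and the corepressor gene Sin3b by 0.24 ± 0.051, a call lost with the length and GC trend removed. Neither Sin3a nor Bap1 was called, at -0.02 and 0.00.

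Knockdown moved a large part of the transcriptome by small amounts. At an adjusted p under 0.05, 42% of genes tested were called (5470 of 13022), with 2882 (22.1%) higher and 2588 (19.9%) lower and a median absolute log2 fold change of 0.338 among them. Large changes went mainly upward: 316 genes (2.43%) were at least 2-fold higher and 60 (0.461%) at least 2-fold lower. Both knockdown libraries lay above both controls for 37.9% of genes tested and below both for 36.8%. With the length and GC trend removed, the split turned to 2314 higher and 3352 lower; it was 2663 and 3430 after quantile normalization, 2877 and 3549 with voom on recovered reads, and 3201 and 2277 without mitochondrial genes. The filter on low values could itself set a direction for few genes: 267 genes passed only through both knockdown libraries, of which 187 were called, and 107 only through both controls, of which 56 were called. The median of all genes was 0.0048.

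**Figure D1:**
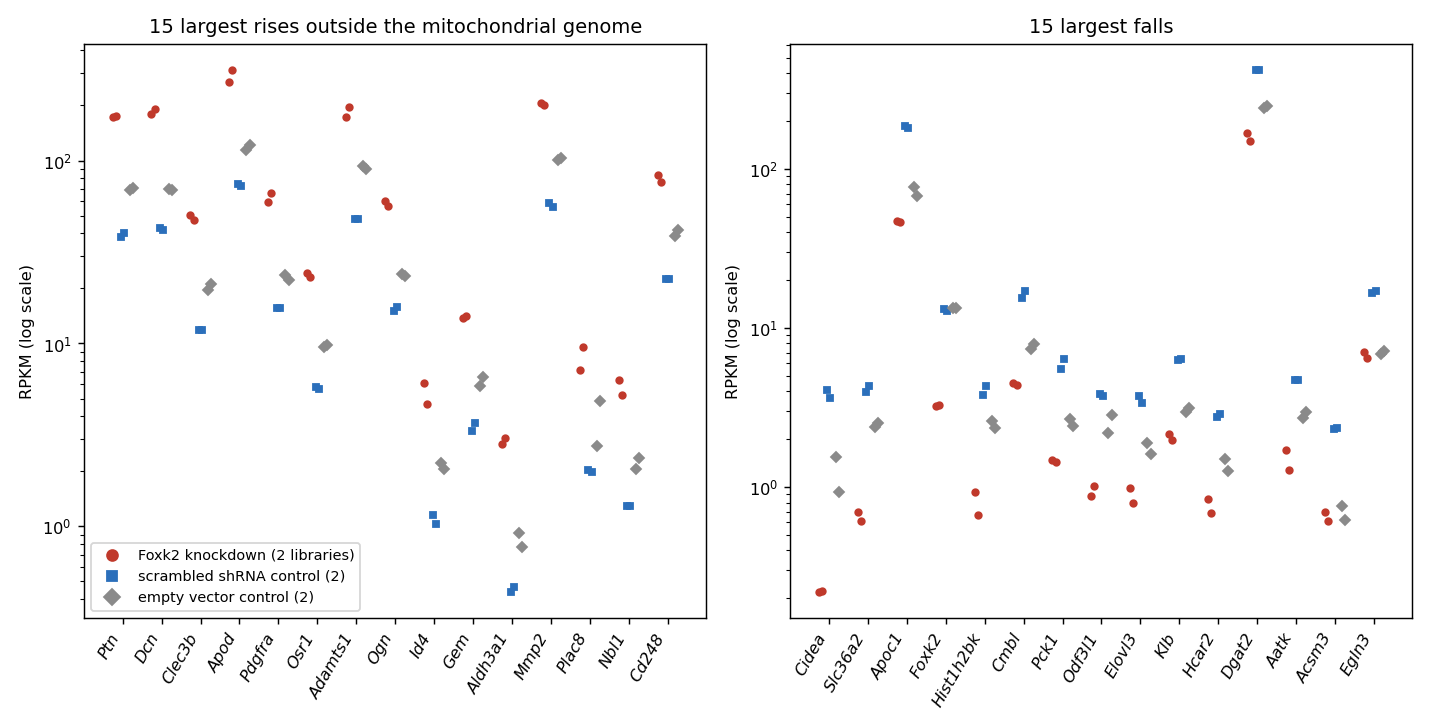
RPKM on a log axis for the 15 largest rises outside the mitochondrial genome (left) and the 15 largest falls (right); each point is 1 library, with Foxk2 knockdown in red, the scrambled shRNA control in blue and the empty vector control of the overexpression experiment in grey. Knockdown and scrambled control points are apart for every gene shown; grey points mostly lie between them, while for Egln3 and Acsm3 they lie at the knockdown level and for Foxk2 at the scrambled control level.

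The 15 largest rises outside the mitochondrial genome ran from 1.79 to 2.13 as log2 fold changes. Ptn, the growth factor pleiotrophin, had 172 and 174 RPKM in knockdown libraries, against 38.0 and 40.2 RPKM in control libraries (log2 fold change 2.13 ± 0.12, adjusted p = 2.38e-09). Dcn, the collagen-binding proteoglycan decorin, had 179 and 191 RPKM in knockdown libraries, against 42.9 and 41.9 RPKM in control libraries (log2 fold change 2.11 ± 0.086, adjusted p = 1.26e-10). Pdgfra, a growth factor receptor that marks fat cell precursors, had 59.2 and 66.1 RPKM in knockdown libraries, against 15.6 and 15.7 RPKM in control libraries (log2 fold change 1.96 ± 0.068, adjusted p = 2.22e-11). In these 3 genes the lower knockdown library was at least 3 times the higher control library, and replicates were close. Also among the 15 were Clec3b, which encodes tetranectin (1.99), the lipocalin gene Apod (1.97), the transcription factor gene Osr1 (1.96), the protease gene Adamts1 (1.93), the proteoglycan gene Ogn (1.89) and Id4, an inhibitor of helix-loop-helix factors (1.87). They were followed by the small GTPase gene Gem (1.86), the aldehyde dehydrogenase gene Aldh3a1 (1.85), the gelatinase gene Mmp2 (1.82), Plac8 (1.81), the BMP antagonist gene Nbl1 (1.80) and the stromal surface gene Cd248 (1.79). Aldh3a1 had 2.81 and 3.06 RPKM in knockdown libraries, against 0.437 and 0.464 RPKM in control libraries. It passed the filter only through the knockdown libraries, which can set its direction.

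Measured as a difference in level, the largest rise outside the mitochondrial genome was that of Hp, haptoglobin, which had 1576 and 1559 RPKM in knockdown libraries, against 1142 and 1119 RPKM in control libraries, a change of 0.47 ± 0.064 only. Ccdc80, a matrix protein, had 601 and 625 RPKM in knockdown libraries, against 212 and 208 RPKM in control libraries (1.54 ± 0.08). Gas6, a ligand of TAM receptors, had 404 and 408 RPKM in knockdown libraries, against 162 and 157 RPKM in control libraries (1.34 ± 0.055). Sparc (0.66), the intermediate filament gene Vim (0.95) and the protease inhibitor gene Cst3 (0.64) completed this group.

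The 15 largest falls ran from -2.59 to -1.26 as log2 fold changes. Cidea, which coats lipid droplets, had 0.219 and 0.224 RPKM in knockdown libraries, against 4.08 and 3.61 RPKM in control libraries, the largest fall (log2 fold change -2.59 ± 0.14, adjusted p = 1.51e-09). Its fold is understated by the pseudocount, and the 2 knockdown libraries sat under 0.3 RPKM, so it passed the filter only through the control libraries. Slc36a2, a proton-coupled amino acid transporter, had 0.695 and 0.614 RPKM in knockdown libraries, against 3.99 and 4.29 RPKM in control libraries (-2.01 ± 0.12). Apoc1, an apolipoprotein, had 47.4 and 46.3 RPKM in knockdown libraries, against 186 and 181 RPKM in control libraries (log2 fold change -1.96 ± 0.063, adjusted p = 1.82e-11). Pck1, which feeds glycerol synthesis in fat cells, had 1.49 and 1.44 RPKM in knockdown libraries, against 5.50 and 6.37 RPKM in control libraries (-1.71 ± 0.12). Dgat2, the last step of triglyceride synthesis, had 169 and 150.4 RPKM in knockdown libraries, against 417 and 418 RPKM in control libraries (log2 fold change -1.39 ± 0.061, adjusted p = 2.17e-10). Also among the 15 were the hydrolase gene Cmbl (-1.76), Odf3l1 (-1.56), the elongase gene Elovl3 (-1.56), Klb, the FGF21 coreceptor (-1.41), Hcar2, a receptor that restrains lipolysis (-1.40), the kinase gene Aatk (-1.39), Acsm3, an acyl-CoA synthetase (-1.30), and the oxygen sensor gene Egln3 (-1.26). The histone gene Hist1h2bk, with a mean of 65 reads in control libraries, had 0.937 and 0.669 RPKM in knockdown and 3.82 and 4.29 RPKM in control cells (-1.81 ± 0.40). Of the Acsm3 transcript 35.8% matches its neighbour Eri2, so its reads are uncertain.

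By difference in level the falls were Scd1, the main desaturase of fat cells, with 7069 and 6742 RPKM in knockdown libraries, against 13590.3 and 14102 RPKM in control libraries (log2 fold change -1.004 ± 0.07, adjusted p = 2.19e-08), then mt-Cytb (-0.31), Cfd, the adipokine adipsin (-0.34), the lipase gene Lpl (-0.53), the glycerol phosphate dehydrogenase gene Gpd1 (-0.75) and the lipogenic factor gene Thrsp (-1.03). The call of mt-Cytb was lost after quantile normalization.

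The empty vector controls of the overexpression experiment give a second control level among the Foxk2 libraries. Of the 316 genes at least 2-fold higher than the scrambled control, 300 (94.9%) had both knockdown libraries above both empty vector libraries as well. Of the 60 at least 2-fold lower, 45 (75%) had both below. Over all calls the shares were 83.3% of 2882 rises and 61.6% of 2588 falls. No such share was measured over all genes tested. The same 2 knockdown libraries made the calls, so these counts are no independent test. Counts of this kind for single lists below are to be read beside the shares over all calls. The criterion sets no size for the gap, so Ccdc80, whose levels are given below, counts as above. Dcn was 70.1 and 69.4 RPKM in empty vector libraries and Mmp2 100.7 and 104, between knockdown and scrambled control. Thrsp, with 336 and 304 RPKM in knockdown, was 335 and 365 RPKM in empty vector and 643 and 663 in scrambled control libraries. Egln3 likewise had 7.02 and 6.45 RPKM in knockdown, 6.82 and 7.17 in empty vector and 16.5 and 17.1 in scrambled control libraries, and Ccdc80 had 601 and 625, 589 and 575 and 212 and 208 RPKM. For such genes the scrambled control stood apart from both other groups. The constructs differ in kind as well, which the design does not separate.

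Promoters were searched for the forkhead core GTAAACA, or its reverse complement TGTTTAC on the gene's strand, from 250 bases before to 50 after the start site (RefSeq, GRCm38.p6). It was in 2.62% of 2868 promoters of genes called higher, 2.43% of 2474 of genes called lower, 2.49% of 6058 of genes tested and not called, and 3.65% of all 32851 promoters, so that genes called in either direction differed little from genes not called. Among genes at least 2-fold higher 9 of 272 promoters held it (3.31%), and among those at least 2-fold lower 3 of 42 (7.14%). Of the 13022 genes, 8970 had a promoter in the table. The matches of these changed genes follow because they are the places where a forkhead sequence and a large change meet; 12 bases stand on either side and capitals mark the motif, on the strand of the gene.

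Axl (chr7:25788944-25788974, minus strand): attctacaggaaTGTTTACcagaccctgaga
Cald1 (chr6:34598447-34598477, plus strand): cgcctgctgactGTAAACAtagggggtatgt
Dlk1 (chr12:109452724-109452754, plus strand): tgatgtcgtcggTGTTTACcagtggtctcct
Dlk1 (chr12:109452744-109452774, plus strand): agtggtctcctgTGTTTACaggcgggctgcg
Fgf10 (chr13:118714676-118714706, plus strand): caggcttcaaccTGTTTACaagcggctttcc
Hdac7 (chr15:97831860-97831890, minus strand): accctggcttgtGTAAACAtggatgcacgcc
Junb (chr8:84978865-84978895, minus strand): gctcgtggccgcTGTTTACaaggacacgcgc
Pdpn (chr4:143299699-143299729, minus strand): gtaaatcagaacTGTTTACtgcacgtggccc
Sfxn3 (chr19:45047435-45047465, plus strand): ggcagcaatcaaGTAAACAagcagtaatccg
Sox12 (chr2:152398135-152398165, minus strand): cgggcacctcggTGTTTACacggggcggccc
Acsm3 (chr7:119760852-119760882, plus strand): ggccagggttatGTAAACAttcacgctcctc
Cyp2ab1 (chr16:20325471-20325501, minus strand): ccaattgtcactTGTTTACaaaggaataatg
Rassf6 (chr5:90640740-90640770, minus strand): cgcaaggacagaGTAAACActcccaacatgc

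Of these, the first 10 lines belong to genes that rose. Axl, a receptor tyrosine kinase and receptor of Gas6, had 39.3 and 37.5 RPKM in knockdown libraries, against 16.3 and 15.7 RPKM in control libraries (1.24 ± 0.06). Dlk1, the preadipocyte factor that restrains fat cell differentiation and the only gene with a pair of matches, had 56.2 and 55.2 RPKM in knockdown libraries, against 25.1 and 24.6 RPKM in control libraries (1.15 ± 0.11). Fgf10, a growth factor for fat cell precursors, had 5.76 and 5.44 RPKM in knockdown libraries, against 2.05 and 2.38 RPKM in control libraries (1.17 ± 0.10). Pdpn, podoplanin, had 3.40 and 3.51 RPKM in knockdown libraries, against 0.887 and 1.11 RPKM in control libraries (1.40 ± 0.088). Hdac7, Sfxn3 and Sox12 rose by 1.04 ± 0.095, 1.05 ± 0.068 and 1.07 ± 0.18. Acsm3, Cyp2ab1 and Rassf6 fell, with log2 fold changes of -1.30 ± 0.12, -1.27 ± 0.17 and -1.03 ± 0.12. No value here shows binding at these sequences.

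Fibroblast and preadipocyte markers rose nearly as a whole. Of 20 tested members, 18 rose, with 14 of the list changed at least 2-fold, and the median log2 fold change was 1.20, against 0.0048 for all genes. Igfbp4 was the single fall (-0.23 ± 0.041) and Zfp423 was not called (0.11). Postn, the matrix protein periostin, had 47.6 and 47.2 RPKM in knockdown libraries, against 14.3 and 14.5 RPKM in control libraries (log2 fold change 1.69 ± 0.068, adjusted p = 1.06e-10). Fn1, fibronectin, had 95.7 and 105 RPKM in knockdown libraries, against 31.4 and 31.5 RPKM in control libraries (log2 fold change 1.66 ± 0.076, adjusted p = 3.50e-10). Knockdown and control libraries were far apart in both. Thy1 rose by 1.61 ± 0.094, Pdgfrb by 1.33 ± 0.082 and Ly6a by 1.08 ± 0.13. In 17 of the 18 rises both knockdown libraries were also above both empty vector libraries, beside 83.3% of all genes called higher. The marker sums given above are of the same kind of genes, and their part in the other changes was not tested.

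Collagens and other matrix proteins followed. Of 21 collagen genes 17 rose (median 0.67): Col1a1 and Col1a2, the chains of fibrillar type I collagen, had 296 and 256 RPKM in knockdown and 87.5 and 86.9 RPKM in control cells (1.65 ± 0.10) and 216 and 202 RPKM in knockdown and 79.9 and 81.5 RPKM in control cells (1.37 ± 0.063). Col3a1 rose by 1.11 ± 0.058 and Col11a1 by 1.21 ± 0.074. Col15a1, of basement membranes, was the only collagen to fall, with 2.90 and 2.51 RPKM in knockdown libraries, against 4.30 and 4.58 RPKM in control libraries (-0.63 ± 0.09). Of 36 other matrix proteins and crosslinking enzymes 33 rose (median 0.87), and Spp1, osteopontin, fell (-0.39 ± 0.08). Lox, which crosslinks collagen and elastin, had 182 and 178 RPKM in knockdown libraries, against 53.3 and 52.8 RPKM in control libraries (log2 fold change 1.75 ± 0.058, adjusted p = 1.82e-11). The proteoglycans Dcn and Ogn headed this list, and Sparcl1 and Podn were not called.

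Of 25 matrix proteases and their inhibitors, 21 rose and none fell (median 0.76). Mmp2 had 206 and 200.2 RPKM in knockdown libraries, against 58.3 and 55.7 RPKM in control libraries (log2 fold change 1.82 ± 0.064, adjusted p = 2.36e-11). Timp2, an inhibitor that also takes part in activating MMP2, had 127 and 133 RPKM in knockdown libraries, against 45.0 and 43.9 RPKM in control libraries (log2 fold change 1.54 ± 0.069, adjusted p = 2.79e-10), and Mmp14, the membrane protease of the same step, rose by 1.57 ± 0.088. The procollagen protease gene Adamts2 rose by 1.20 ± 0.066. All 21 rises lay above the empty vector libraries as well, beside 83.3% of all genes called higher. Timp4, Mmp19 and Adamts9 were among those not called.

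Contractile and myofibroblast genes rose in 20 of 22 cases (median 0.69). Acta2, smooth muscle actin, had 22.3 and 23.9 RPKM in knockdown libraries, against 8.36 and 8.01 RPKM in control libraries (log2 fold change 1.44 ± 0.11, adjusted p = 6.23e-08). Cnn2, calponin, had 45.5 and 47.0 RPKM in knockdown libraries, against 16.1 and 16.0 RPKM in control libraries (log2 fold change 1.499 ± 0.093, adjusted p = 6.26e-09), and the actin-binding genes Flna and Cald1 rose by 1.08 ± 0.06 and 1.07 ± 0.059. The falls were Des, desmin, with 4.82 and 4.75 RPKM in knockdown libraries, against 8.15 and 8.19 RPKM in control libraries (-0.71 ± 0.076), and the myosin gene Myh10 (-0.23 ± 0.032). Acta2 at 17.8 and 19.0 RPKM in empty vector libraries was nearer to knockdown than to the scrambled control. Des at 4.55 and 5.07 RPKM in empty vector libraries was at the knockdown level.

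Ligands, receptors and binding proteins of growth signalling rose more often than they fell. In the TGF-beta and BMP pathway 29 of 38 rose and 3 fell (median 0.42). An antagonist was among them: Fst, follistatin, which binds activin, had 18.001 and 17.6 RPKM in knockdown libraries, against 5.94 and 5.82 RPKM in control libraries (log2 fold change 1.52 ± 0.074, adjusted p = 6.71e-10). Ltbp1, which stores TGF-beta in the matrix, rose by 1.38 ± 0.079 and Fstl1 by 1.16 ± 0.067. The receptor gene Tgfbr2 fell by 0.21 on the log2 scale (26.9 and 27.0 RPKM in knockdown and 31.2 and 31.3 RPKM in control cells), as did the ligand gene Gdf5 (-0.40 ± 0.072), although 40.5% of its transcript matches another annotated gene. Smad2, the other gene lower (-0.16), lost its call when any 1 of the 4 libraries was left out, with an adjusted p of up to 0.133.

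In the Wnt pathway 13 of 20 rose and none fell (median 0.30). The secreted antagonist gene Sfrp2 had 4.07 and 3.95 RPKM in knockdown libraries, against 1.01 and 1.16 RPKM in control libraries (1.51 ± 0.15), the receptor genes Fzd1 and Fzd7 rose by 0.75 ± 0.076 and 0.76 ± 0.083, and the coreceptor gene Lrp6 by 0.37 ± 0.045. Of 12 IGF genes 9 rose. Igfbp3 and Igfbp6, which bind the ligands, had 30.5 and 31.2 RPKM in knockdown and 13.2 and 12.5 RPKM in control cells (1.23 ± 0.051) and 6.94 and 6.67 RPKM in knockdown and 1.84 and 2.51 RPKM in control cells (1.46 ± 0.14). Igf2r rose by 0.59 ± 0.058 and Igfbp7 by 0.50 ± 0.063, and Igfbp4 was the fall named above.

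Chemokines, cytokines and NF-kB genes rose in 16 of 23 cases and none fell (median 0.50). All 16 were also above the empty vector libraries, beside 83.3% of all genes called higher. Cxcl12, a stromal chemokine, had 31.7 and 33.1 RPKM in knockdown libraries, against 10.9 and 11.1 RPKM in control libraries (log2 fold change 1.51 ± 0.062, adjusted p = 1.29e-10). Cx3cl1, a membrane-bound chemokine, had 5.19 and 5.52 RPKM in knockdown libraries, against 2.13 and 1.95 RPKM in control libraries (1.21 ± 0.078), and Csf1, the macrophage growth factor, had 17.2 and 17.3 RPKM in knockdown libraries, against 8.22 and 7.78 RPKM in control libraries (1.06 ± 0.078). Tnfaip2 rose by 0.92 ± 0.066. The interferon list was mixed, with 10 of 30 higher, 4 lower and 16 not called, a share called of 46.7% beside 42% of all genes. Its median was 0.45, and 0.52 in Foxk1 knockdown. Ifitm3 had 87.5 and 116 RPKM in knockdown libraries, against 41.7 and 37.5 RPKM in control libraries (1.34 ± 0.17) and Bst2 had 25.2 and 29.0 RPKM in knockdown libraries, against 9.59 and 8.46 RPKM in control libraries (1.53 ± 0.30), both of them spread between replicates, and the empty vector libraries were 11.7 and 24.2 RPKM for Bst2. Gbp2 fell (-0.74 ± 0.13), as did the regulators Irf1 (-0.25 ± 0.048) and Irf7 (-0.61 ± 0.16). The call of Irf7 was lost without control replicate 1 (adjusted p = 0.0822).

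Early response factors rose in 15 of 26 cases, with a median of 0.35 and 1 fall. Junb, an AP-1 subunit, had 9.58 and 9.24 RPKM in knockdown libraries, against 3.53 and 3.81 RPKM in control libraries (1.250 ± 0.15). Klf4 rose by 0.84 ± 0.092, Klf6 by 0.54 ± 0.047 and Fosl2 by 0.61 ± 0.071, while the stress factor gene Atf3 fell (-0.42 ± 0.078). Only 7 of the 15 rises lay above both empty vector libraries: Klf6 had 42.7 and 43.0 RPKM in knockdown, 45.2 and 41.4 in empty vector and 30.4 and 28.5 in scrambled control libraries. Among D-type cyclins, Ccnd1, which drives entry into the cell cycle, had 14.1 and 12.9 RPKM in knockdown libraries, against 5.94 and 6.11 RPKM in control libraries (log2 fold change 1.10 ± 0.062, adjusted p = 2.77e-09) and Ccnd3 rose by 0.69 ± 0.064, although 29.5% of the Ccnd1 transcript matches the annotated transcript of another gene. Genes of replication and mitosis did not follow, with 3 of 25 higher, 4 lower and 18 not called, shares below those of all genes. Cdk2 fell by 0.31 and Tpx2 rose by 0.45 on the log2 scale.

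**Figure D2:**
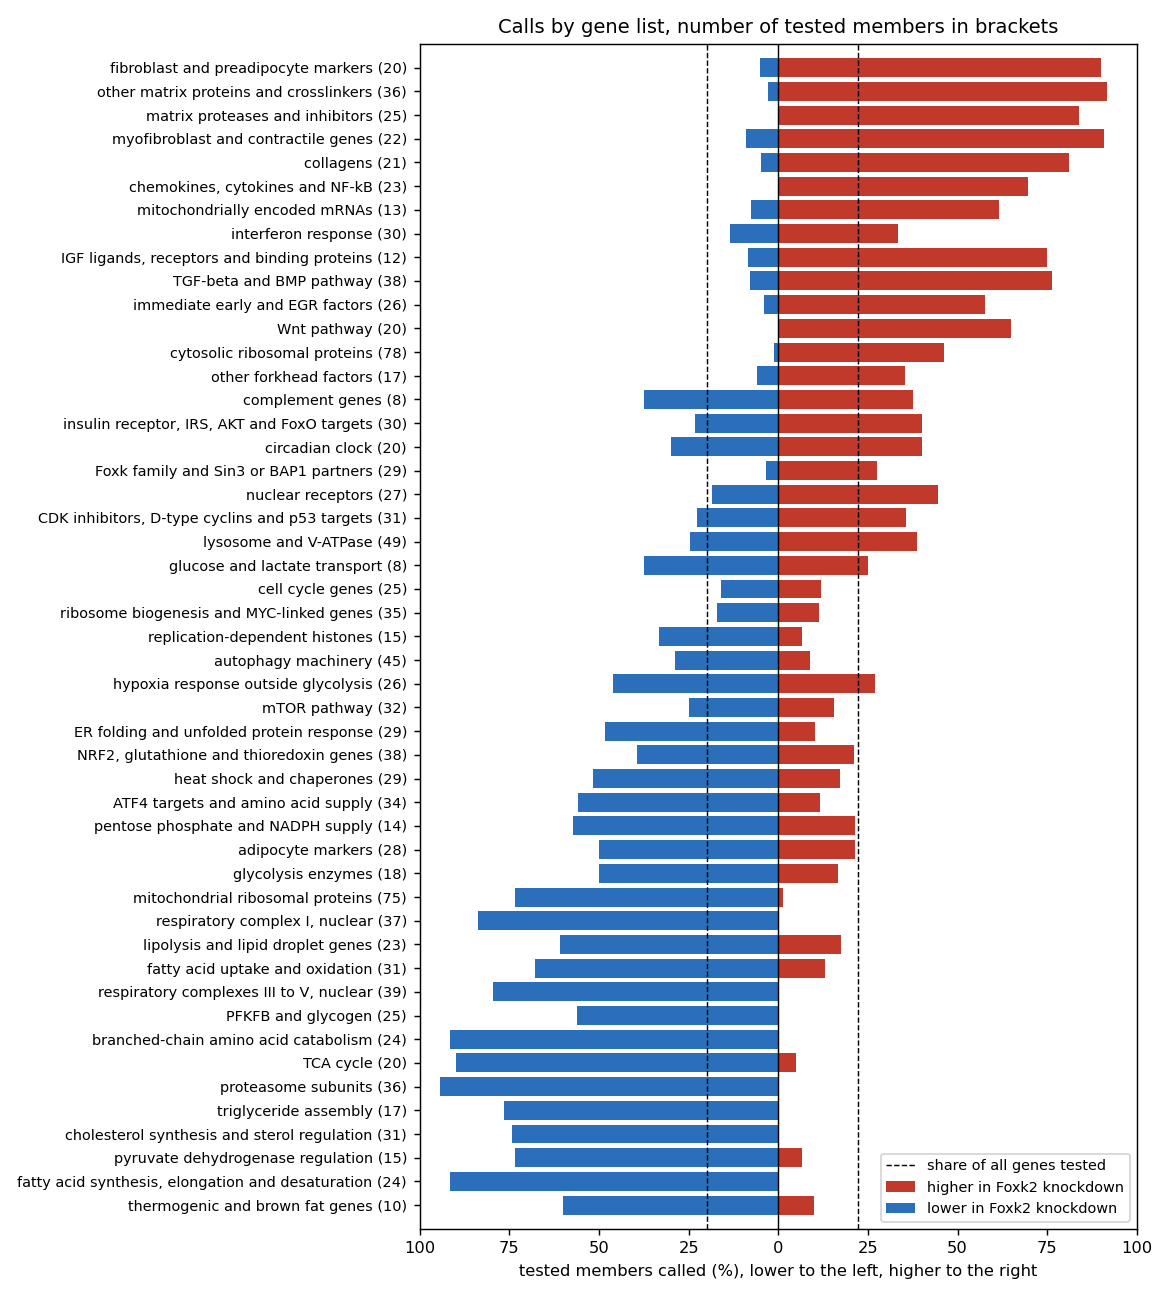
Share of tested members called higher (red, to the right) and lower (blue, to the left) in Foxk2 knockdown for 49 gene lists with 8 or more tested members, ordered by median log2 fold change; dashed lines mark the shares over all 13022 genes, 22.1% higher and 19.9% lower. Fibroblast, matrix and contractile lists stand at the top with 81.0 to 91.7% of members higher, and fatty acid synthesis, proteasome and branched-chain amino acid lists near the bottom with 91.7 to 94.4% lower.

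Genes that build fat fell together. Of 24 genes of fatty acid synthesis, elongation and desaturation 22 fell and none rose (median -0.57), and 17 of the 22 falls also lay below both empty vector libraries. Acacb, an acetyl-CoA carboxylase, had 4.02 and 3.93 RPKM in knockdown libraries, against 7.39 and 7.53 RPKM in control libraries (log2 fold change -0.83 ± 0.071, adjusted p = 1.69e-07). Elovl5, an elongase of polyunsaturated fatty acids, had 34.1 and 33.5 RPKM in knockdown libraries, against 52.2 and 51.4 RPKM in control libraries (log2 fold change -0.61 ± 0.046, adjusted p = 4.52e-08). Fasn, fatty acid synthase, fell by 0.60 on the log2 scale, Acaca by 0.63, Acly by 0.50 and the regulator genes Mlxipl and Srebf1 by 0.58 and 0.36. Of 17 genes of triglyceride assembly 13 fell (median -0.37). Agpat2, which acylates lysophosphatidic acid, had 291 and 272 RPKM in knockdown libraries, against 421 and 423 RPKM in control libraries (log2 fold change -0.58 ± 0.046, adjusted p = 7.15e-08), and Gpd1 had 629.6 and 566 RPKM in knockdown libraries, against 970.4 and 1034 RPKM in control libraries (log2 fold change -0.75 ± 0.06, adjusted p = 9.70e-08).

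Sterol synthesis fell as well against the scrambled control, in 23 of 31 genes with no rise (median -0.37), but 7 of the 23 falls lay below both empty vector libraries. Sqle and Pmvk fell by 0.61 and 0.62 on the log2 scale, and Abcg1, a cholesterol exporter, by 0.70.

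Genes that identify fat cells moved unevenly. Of 28 adipocyte markers 14 fell, 6 rose and 8 were not called (median -0.21). The share that rose, 21.4%, was near the 22.1% of all genes. Retn, the adipokine resistin, had 156 and 152 RPKM in knockdown libraries, against 289 and 312 RPKM in control libraries (log2 fold change -0.96 ± 0.061, adjusted p = 7.41e-09), and Bscl2, the lipid droplet protein seipin, had 6.62 and 5.69 RPKM in knockdown libraries, against 12.3 and 11.6 RPKM in control libraries (log2 fold change -0.91 ± 0.062, adjusted p = 1.50e-08). Fabp4, Plin1, Cidec and Pparg were not called, with log2 fold changes between -0.09 and 0.10. Adipoq, adiponectin, had 1597 and 1621 RPKM in knockdown and 1828 and 1911 RPKM in control cells (-0.22 ± 0.054), a call lost without control replicate 2 (adjusted p = 0.0525) and with the length and GC trend removed. Cebpd, an early adipogenic factor, rose by 1.04 ± 0.079. Of 10 thermogenic genes tested 6 fell (median -0.66): Cidea, Elovl3, the muscle-type cytochrome oxidase genes Cox7a1 (-1.20) and Cox8b (-1.10), the potassium channel gene Kcnk3 (-0.71) and Gk (-0.60). Cox8b had 45.5 and 34.5 RPKM in knockdown and 42.6 and 38.8 RPKM in empty vector libraries. Kcnk3 had 17.9 and 15.2 RPKM in knockdown and 17.3 and 17.0 RPKM in empty vector libraries, so neither lay below that second control. Adrb3, the beta-adrenergic receptor of fat cells, rose, with 9.82 and 8.95 RPKM in knockdown libraries, against 5.03 and 4.49 RPKM in control libraries (0.91 ± 0.15).

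Genes listed for lipolysis, lipid droplets and fatty acid oxidation also fell more often than they rose. The first list holds genes that restrain lipolysis as well as lipases, so its count gives no direction for fat breakdown. Of 23 genes of lipolysis and lipid droplets 14 fell and 4 rose, and 7 of the 14 falls also lay below both empty vector libraries. The falls included Hcar1, the lactate receptor that restrains lipolysis, with 1.37 and 1.23 RPKM in knockdown libraries, against 2.97 and 3.16 RPKM in control libraries (log2 fold change -0.98 ± 0.05, adjusted p = 9.71e-10), and the rises Lipe, hormone-sensitive lipase (0.21 ± 0.042), Plin3 (0.36 ± 0.075) and Plin4 (0.17 ± 0.056). The call of Lipe was lost with the length and GC trend removed, and that of Plin4 without either knockdown library or control replicate 2 (adjusted p up to 0.222). Of 31 genes of fatty acid uptake and oxidation 21 fell and 4 rose (median -0.26), and 12 of the 21 falls also lay below both empty vector libraries. Acadm, the medium-chain dehydrogenase, had 180.1 and 174 RPKM in knockdown libraries, against 260.2 and 259.6 RPKM in control libraries (log2 fold change -0.55 ± 0.042, adjusted p = 4.36e-08), and the carnitine carrier gene Slc25a20 fell by 0.68 on the log2 scale. The rises were Cpt1c (1.26 ± 0.13), Cpt1a, the gate of mitochondrial entry (0.41 ± 0.087), the transporter gene Slc27a1 (0.40 ± 0.074) and Cd36 (0.17 ± 0.062). The Cd36 call was lost with any 1 library left out (0.14 to 0.19). After quantile normalization Cd36 was at -0.060 and not called.

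Several genes of glucose handling fell by modest amounts. Slc2a4, the insulin-regulated transporter GLUT4, had 52.2 and 46.8 RPKM in knockdown libraries, against 93.0 and 93.8 RPKM in control libraries (log2 fold change -0.91 ± 0.072, adjusted p = 7.36e-08), and the lactate carrier gene Slc16a1 had 9.92 and 9.59 RPKM in knockdown libraries, against 17.2 and 17.9 RPKM in control libraries (log2 fold change -0.82 ± 0.078, adjusted p = 5.96e-07). Slc2a10 and Slc2a13 rose by 0.78 ± 0.11 and 0.58 ± 0.10. Of 18 glycolysis genes 9 fell, 3 rose and 6 were not called (median -0.22). The study is known for its account of glycolysis, so this list is not independent evidence of its direction. Hk2, the hexokinase of insulin-sensitive tissue, had 43.1 and 41.0 RPKM in knockdown libraries, against 67.8 and 68.6 RPKM in control libraries (log2 fold change -0.69 ± 0.065, adjusted p = 5.28e-07), the phosphofructokinase gene Pfkp had 10.7 and 10.6 RPKM in knockdown libraries, against 17.0 and 17.6 RPKM in control libraries (log2 fold change -0.68 ± 0.07, adjusted p = 1.38e-06), and Ldha had 145 and 140.0 RPKM in knockdown libraries, against 224 and 240.2 RPKM in control libraries (log2 fold change -0.70 ± 0.099, adjusted p = 3.51e-05). The rises were Hk1 (0.45 ± 0.09), Ldhb (0.35 ± 0.068) and Eno3 (0.34 ± 0.084), the last lost without control replicate 2 (adjusted p = 0.0833). Ldhb had 64.1 and 62.7 RPKM in knockdown against 47.9 and 51.7 in control libraries.

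Of 25 genes for fructose bisphosphate control and glycogen 14 fell and none rose (median -0.29). Pfkfb3, which makes the activator of phosphofructokinase, had 17.7 and 17.4 RPKM in knockdown libraries, against 24.8 and 25.6 RPKM in control libraries (log2 fold change -0.51 ± 0.047, adjusted p = 4.34e-07), and the branching enzyme gene Gbe1 had 14.2 and 13.9 RPKM in knockdown libraries, against 25.2 and 27.4 RPKM in control libraries (log2 fold change -0.88 ± 0.11, adjusted p = 1.14e-05). In the pentose phosphate and NADPH list 8 of 14 fell: Tkt, transketolase, had 77.4 and 71.1 RPKM in knockdown libraries, against 129 and 133 RPKM in control libraries (log2 fold change -0.81 ± 0.059, adjusted p = 3.19e-08), and malic enzyme Me1 had 70.6 and 68.4 RPKM in knockdown libraries, against 128 and 136 RPKM in control libraries (log2 fold change -0.92 ± 0.085, adjusted p = 4.37e-07). Of the 8 falls 4 also lay below both empty vector libraries. Idh2, the mitochondrial NADPH-linked isocitrate dehydrogenase, rose, with 139.6 and 138 RPKM in knockdown libraries, against 90.8 and 88.3 RPKM in control libraries (log2 fold change 0.63 ± 0.057, adjusted p = 3.28e-07). Nnt rose too (0.49 ± 0.074), with nearly all of its transcript shared with a second annotated Nnt entry. H6pd was at 0.15, a call lost with any 1 library left out (0.13 to 0.18). With the length and GC trend removed H6pd was at -0.023 and not called.

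Around pyruvate dehydrogenase 11 of 15 genes fell and 1 rose (median -0.38). Pdhb, a subunit of the enzyme, had 176 and 179 RPKM in knockdown libraries, against 288 and 291 RPKM in control libraries (log2 fold change -0.70 ± 0.041, adjusted p = 3.65e-09), and Pdk1, a kinase that switches it off, had 7.48 and 7.49 RPKM in knockdown libraries, against 14.2 and 14.3 RPKM in control libraries (log2 fold change -0.88 ± 0.076, adjusted p = 1.90e-07). Pdp1, the phosphatase that switches it on, rose instead, with 17.9 and 19.3 RPKM in knockdown libraries, against 6.96 and 6.68 RPKM in control libraries (log2 fold change 1.38 ± 0.072, adjusted p = 1.23e-09). The subunit and the inhibiting kinase thus fell and the activating phosphatase rose, each with replicates close together.

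Nuclear genes of mitochondria fell broadly and by little. In the TCA cycle 18 of 20 genes fell (median -0.29): Idh3a, of the NAD-linked isocitrate dehydrogenase, had 91.2 and 91.2 RPKM in knockdown libraries, against 154 and 162 RPKM in control libraries (log2 fold change -0.79 ± 0.057, adjusted p = 2.90e-08), and citrate synthase Cs had 260.5 and 248 RPKM in knockdown libraries, against 339.9 and 346 RPKM in control libraries (log2 fold change -0.43 ± 0.049, adjusted p = 3.61e-06). Of the 18 falls 11 also lay below both empty vector libraries, where Cs had 260 and 271 RPKM, near the knockdown level. Ogdhl, a paralogue of the oxoglutarate dehydrogenase subunit, rose (1.04 ± 0.15). Of 37 genes of complex I 31 fell and none rose (median -0.25), with Ndufa5 at -0.45 and Ndufv2 at -0.31. Complexes III to V gave 31 falls of 39 and no rise (median -0.26). Uqcrb, of complex III, had 38.0 and 43.7 RPKM in knockdown libraries, against 60.6 and 63.1 RPKM in control libraries (-0.60 ± 0.065), and Cox7b, of complex IV, had 112 and 113 RPKM in knockdown libraries, against 158 and 164 RPKM in control libraries (-0.51 ± 0.05). Of 75 mitochondrial ribosomal protein genes 55 fell (median -0.25), and Mrps6 was the single rise (0.50 ± 0.065). Between 22 and 43 of the falls in each of these 3 large lists also lay below both empty vector libraries.

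Breakdown of branched-chain amino acids, a fat cell pathway that feeds the TCA cycle, fell in 22 of 24 genes (median -0.29). Bckdhb, of the branched-chain dehydrogenase, had 71.4 and 66.9 RPKM in knockdown libraries, against 106 and 109.8 RPKM in control libraries (log2 fold change -0.64 ± 0.051, adjusted p = 9.09e-08), and Mccc2 had 33.7 and 34.1 RPKM in knockdown libraries, against 51.2 and 53.4 RPKM in control libraries (log2 fold change -0.62 ± 0.059, adjusted p = 5.90e-07). Of the 22 falls 7 lay below both empty vector libraries. Dbt, of the same dehydrogenase complex, was 18.8 and 17.5 RPKM there, under the 22.2 and 21.6 RPKM of knockdown and the 35.8 and 35.9 RPKM of scrambled control libraries.

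Proteasome subunits fell in 34 of 36 genes and none rose (median -0.29, range of all members -0.61 to 0.02). Psmd14, the deubiquitinase of the lid, had 30.9 and 32.3 RPKM in knockdown libraries, against 48.2 and 48.5 RPKM in control libraries (log2 fold change -0.60 ± 0.057, adjusted p = 5.65e-07), and Psma6, of the core ring, had 134 and 142 RPKM in knockdown libraries, against 197 and 203 RPKM in control libraries (log2 fold change -0.53 ± 0.052, adjusted p = 7.71e-07). The falls were small and alike, and 28 of the 34 also lay below the empty vector libraries, beside 61.6% of all genes called lower. Psme2, an interferon-induced activator subunit, had 49.4 and 45.8 RPKM in knockdown and 71.7 and 74.4 RPKM in control cells, uncertain because 82.5% of its transcript matches Psme2b.

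Ribosomal proteins of the cytosol went the other way. Of 78 genes 36 rose, 1 fell and 41 were not called (median 0.16). Rpl10a had 138 and 141 RPKM in knockdown and 115 and 111 RPKM in control cells (0.30 ± 0.038) and Rps10 had 126 and 115 RPKM in knockdown and 93.8 and 94.6 RPKM in control cells (0.35 ± 0.049), while Rpl9 fell (-0.21 ± 0.038). Many of these genes have near-identical copies, which cover 64.7% of the Rpl3 transcript, 53.6% of Rps10 and 30.9% of Rpl10a, so reads may be shared. Ribosome biogenesis genes were called in 10 of 35 cases, below the share of all genes.

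Stress and folding genes fell more often than they rose. Among ATF4 targets and amino acid supply 19 of 34 fell and 4 rose (median -0.16). Asns, asparagine synthetase, had 69.2 and 69.8 RPKM in knockdown libraries, against 102 and 104 RPKM in control libraries (log2 fold change -0.56 ± 0.043, adjusted p = 5.49e-08), Psat1, of serine synthesis, had 71.6 and 72.7 RPKM in knockdown libraries, against 114 and 117 RPKM in control libraries (log2 fold change -0.68 ± 0.051, adjusted p = 4.58e-08), and the cofactor gene Nupr1 had 43.8 and 40.3 RPKM in knockdown libraries, against 69.4 and 66.9 RPKM in control libraries (log2 fold change -0.69 ± 0.057, adjusted p = 1.32e-07). In the endoplasmic reticulum 14 of 29 fell. Ero1l, which oxidises disulphide bonds, had 100.7 and 102 RPKM in knockdown libraries, against 205 and 194 RPKM in control libraries (log2 fold change -0.97 ± 0.13, adjusted p = 1.78e-05) and Herpud1 fell by 0.51 on the log2 scale, whereas P4hb, the isomerase subunit of the collagen hydroxylase, rose, with 323 and 326 RPKM in knockdown libraries, against 235 and 237 RPKM in control libraries (log2 fold change 0.46 ± 0.034, adjusted p = 4.52e-08). Of 26 hypoxia genes outside glycolysis 12 fell and 7 rose: Angptl4, an inhibitor of lipoprotein lipase, fell (-0.56 ± 0.064) and the peptide hormone gene Adm rose (1.17 ± 0.095). The share that rose in the hypoxia list, 26.9%, was near the 22.1% of all genes. Of 29 chaperone genes 15 fell and 5 rose (17.2%). Hspa9, of the mitochondrial matrix, had 293 and 304 RPKM in knockdown and 395 and 392.1 RPKM in control cells (-0.40 ± 0.05), and Cryab, a small heat shock protein, had 130.4 and 122 RPKM in knockdown and 80.5 and 81.1 RPKM in control cells (0.64 ± 0.056), with 22.6% of its transcript shared with its neighbour Hspb2.

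Of 30 genes of the receptor, its substrates, AKT and FoxO targets 12 rose (40%) and 7 fell (23.3%), beside 22.1% and 19.9% of all genes. The share of falls was near that of all genes. Insr, the receptor, fell by 0.27 on the log2 scale and Akt2 by 0.41, while Irs1 rose by 0.43 ± 0.068, Irs2 by 0.35 ± 0.074 and Akt1 by 0.43 ± 0.057. Sesn3, a FoxO target, had 12.3 and 12.8 RPKM in knockdown libraries, against 7.91 and 7.98 RPKM in control libraries (log2 fold change 0.62 ± 0.055, adjusted p = 2.66e-07). Klf15 fell, with 20.1 and 17.8 RPKM in knockdown libraries, against 30.4 and 30.7 RPKM in control libraries (log2 fold change -0.68 ± 0.072, adjusted p = 2.09e-06) and 20.007 and 19.5 RPKM in empty vector libraries. Of 17 other forkhead genes 6 rose and 1 fell, a share called of 41.2% beside 42% of all genes. Foxs1, Foxf2 and Foxo3 rose by 1.13 ± 0.14, 0.95 ± 0.11 and 0.51 ± 0.066, and Foxo1 fell (-0.25 ± 0.054). In the mTOR pathway 19 of 32 were not called, and the share called, 40.6%, was also near that of all genes. Deptor, an inhibitor of mTOR, fell, with 17.1 and 16.7 RPKM in knockdown libraries, against 23.1 and 22.7 RPKM in control libraries (-0.43 ± 0.059).

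Mitochondrially encoded RNA needs its own account, since 8 of the 15 largest rises by the rule were neighbours on the mitochondrial genome. The 9 genes from mt-Co2 to mt-Nd4l (mm10 chromosome M, 7013 to 10173) held 1.03 and 2.29% of reads in knockdown, against 0.159 and 0.0227% in control libraries. mt-Atp6, of ATP synthase, had 5220.5 and 10900.0 RPKM in knockdown libraries, against 736 and 98.6 RPKM in control libraries (log2 fold change 4.80 ± 0.85, adjusted p = 0.000279). Groups did not overlap, yet replicates differed by more than 2-fold in knockdown and more than 7-fold in controls, and the empty vector libraries had 10637 and 9950.1 RPKM. The 2 libraries of Foxk2 overexpression had 10802 and 1481 RPKM of mt-Atp6 and 914 and 96.7 RPKM of mt-Nd3. Replicates thus lay far apart in that group as well. mt-Co3 had 3437 and 8151 RPKM in knockdown libraries, against 533 and 74.8 RPKM in control libraries and mt-Nd3 had 598 and 1178 RPKM in knockdown libraries, against 61.0 and 7.51 RPKM in control libraries, with the same order of the 4 libraries. The rest of the mitochondrial genome held 3.96 and 4.62% of reads in knockdown, against 4.09 and 3.98% in control libraries: mt-Nd1 had 7153 and 7381 RPKM in knockdown and 7028 and 7126 RPKM in control cells and mt-Nd2 3384 and 3377 RPKM in knockdown and 3362 and 3358 RPKM in control cells, neither called. At the borders of the stretch mt-Co1 and mt-Nd4 were called (0.45 ± 0.15 and 0.49 ± 0.16), and lost without knockdown replicate 2 or without either control library (adjusted p up to 0.326 and 0.231).

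A copy of this stretch lies in the nuclear genome as 7 annotated pseudogenes (mm10 chromosome 1, 24611535 to 24616197), which at 99% identity cover 99.9% of mt-Co3, 99.6% of mt-Co2 and mt-Atp6 and 99.1% of mt-Nd3. Levels of these genes are therefore uncertain. mt-Atp8, in the same stretch, had no match of at least 100 bases at that identity among annotated transcripts (0%), with 423 and 1011 RPKM in knockdown libraries, against 91.5 and 16.9 RPKM in control libraries (4.03 ± 0.77). Only annotated transcripts were searched, so a copy between the annotated pseudogenes would be missed, and the level of mt-Atp8 may be uncertain too. The pseudogenes themselves held 0.00658 and 0.0173% of reads in knockdown, against 0.0142 and 0.00656% in control libraries. How reads that match both places were assigned is not given in the sources used here, and its part in the result was not tested.

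**Figure D3:**
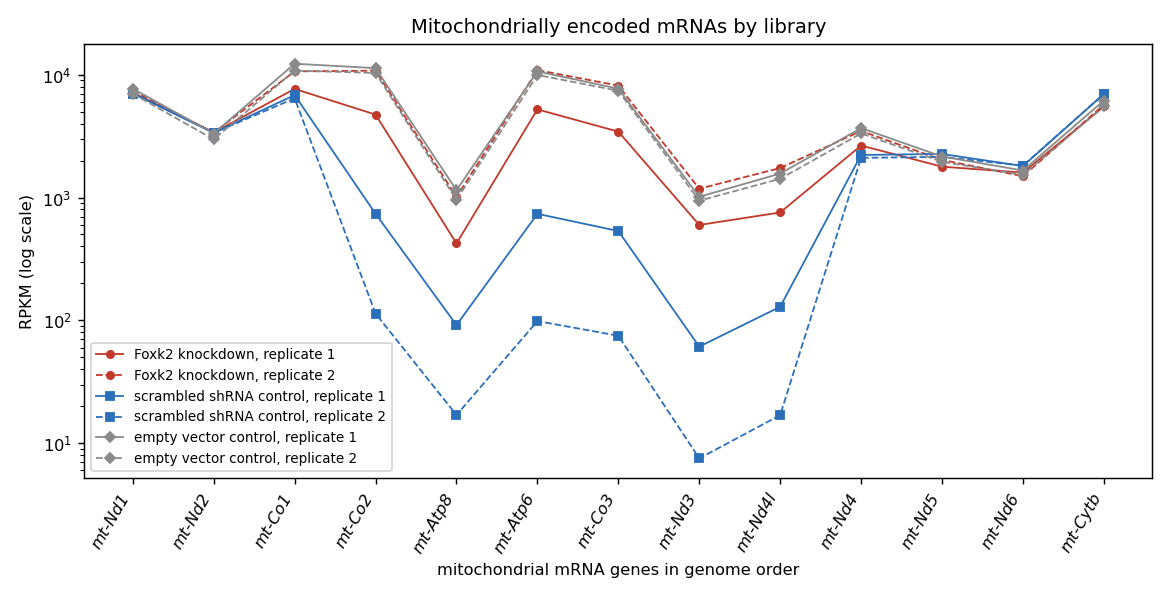
RPKM on a log axis of the 13 mitochondrially encoded mRNAs in genome order, 1 line per library: Foxk2 knockdown red, scrambled shRNA control blue, empty vector control grey, solid for replicate 1 and dashed for replicate 2. The lines run together from mt-Nd1 to mt-Nd2 and from mt-Nd5 to mt-Cytb and part from mt-Co2 to mt-Nd4l, where mt-Atp6 spans 98.6 to 10900.0 RPKM.

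Called genes differed in class. Of 10883 protein-coding genes 24.9% were higher and 22.1% lower, against 4.97% and 9.13% of 986 processed pseudogenes. The share called higher was 30.3% in the longest tertile of genes, 23.2% in the middle and 13.0% in the shortest. It was 31.1% in the tertile of highest GC content, against 14.0% in the lowest, where 24.8% were lower. The most abundant tertile held 31.0% lower and 23.8% higher genes, the least abundant 9.44% and 19.1%. Length and GC content thus moved with direction, and their part in single results was tested only by removing the trend: no list with a median of 0.2 or more in size changed its sign. The largest shift of a list median was 0.193, so a list that kept its sign may still have changed in size.

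The series also holds a knockdown of the paralogue Foxk1. It has its own controls, and the first principal component, 66.5% of the variance, separated the Foxk1 from the Foxk2 libraries, controls included. Of the genes tested, 40.1% were called in Foxk1 knockdown (2882 or 22.1% higher, 2338 or 18% lower). Of genes higher in Foxk2 knockdown 1791 were higher there too, 62.1% of either list, and of genes lower 1329 were lower there, 51.4% of the Foxk2 and 56.8% of the Foxk1 list. Across 13022 genes, which are not independent, Pearson's r between the log2 fold changes was 0.59 and Spearman's rho 0.57. Fibroblast genes rose in both: Dcn by 2.11 with Foxk2 knockdown and 1.45 with Foxk1 knockdown, Pdgfra by 1.96 and 1.10, Fn1 by 1.66 and 0.72.

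The difference between the effects passed the test for 17.3% of genes (2258), with 1220 (9.37%) higher and 1038 (7.97%) lower in Foxk2 knockdown. Among fibroblast and preadipocyte markers it passed for 15 of 20, with 14 higher in Foxk2 knockdown, and among collagens for 12 of 21, all higher. Proteasome genes differed in 20 of 36 cases, 19 of them lower in Foxk2 knockdown (list medians -0.29 and -0.07). The opposite held for genes that Foxk1 knockdown lowered more: 9 glycolysis genes differed and all 9 were higher in Foxk2 knockdown (medians -0.22 and -0.74), as were 19 of 20 differing ATF4 targets and 16 of 17 differing hypoxia genes. Ldha fell by 0.70 on the log2 scale with Foxk2 knockdown and by 1.36 with Foxk1 knockdown (difference 0.66, adjusted p = 0.00233). Egln3 changed by -1.26 and -2.69 (difference 1.43, adjusted p = 9.93e-05), and Trib3, a stress-induced pseudokinase gene, by -0.60 and -1.70 (difference 1.10, adjusted p = 3.33e-06). Psmd14, with -0.60 and -0.11, ran the other way (difference -0.49, adjusted p = 0.000332).

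Called in both but in opposite directions were 212 genes. By smallest p of the difference between the effects, the first were Foxk1 itself (0.30 and -1.23), Man1a, a mannosidase of the Golgi (-0.15 and 0.73), Hsd11b1, which regenerates active glucocorticoid (0.18 and -0.54), Ubd, a ubiquitin-like modifier (-0.49 and 0.69), and the galectin gene Lgals3 (0.18 and -0.43), each pair with the Foxk2 value first. Ubd had 36.0 and 39.3 RPKM in knockdown libraries, against 51.5 and 54.7 RPKM in control libraries. The Man1a call in Foxk2 knockdown was lost with any 1 library left out (adjusted p up to 0.125).

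Overexpression of Foxk2, with its own controls, gave the reverse for most of the genes called in knockdown. Foxk2 rose there by 0.56, and 54.3% of genes were called, 27.4% of all genes higher and 26.9% lower. The effects of knockdown and overexpression differed for 58.2% of genes. Of genes higher in knockdown 1905 were lower with overexpression, 66.1% of the knockdown and 54.3% of the overexpression list, and of genes lower in knockdown 1717 were higher, 66.3% and 48.1%. Pearson's r across genes was -0.60 and Spearman's rho -0.58. Genes at least 2-fold higher in knockdown had a median log2 fold change of 1.248 in knockdown and -0.997 with overexpression, and those at least 2-fold lower -1.23 and 1.24. Cidea changed by -2.59 with knockdown and 4.34 with overexpression, Apoc1 by -1.96 and 2.75, Clec3b by 1.99 and -2.71 and Ccdc80 by 1.54 and -3.33.

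The same direction with knockdown and overexpression was found for 356 genes. Named among them are those whose knockdown and overexpression effects differed in size with the smallest p, not those with the strongest shared effect. They were Col11a1 (1.21 and 0.21), Adipoq (-0.22 and -1.29), the phospholipase gene Pla2g16 (-0.26 and -0.91), Retsat, a retinol saturase gene (-0.12 and -0.62), and the chaperone gene Lrpap1 (-0.12 and -0.79). The knockdown calls of Retsat and Lrpap1 were each lost when single libraries were left out (adjusted p up to 0.104 and 0.396). Cytosolic ribosomal proteins shared a direction too, with list medians of 0.16 and 0.25. Scd1 was at -1.004 with knockdown and -0.16 with overexpression.

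**Figure D4:**
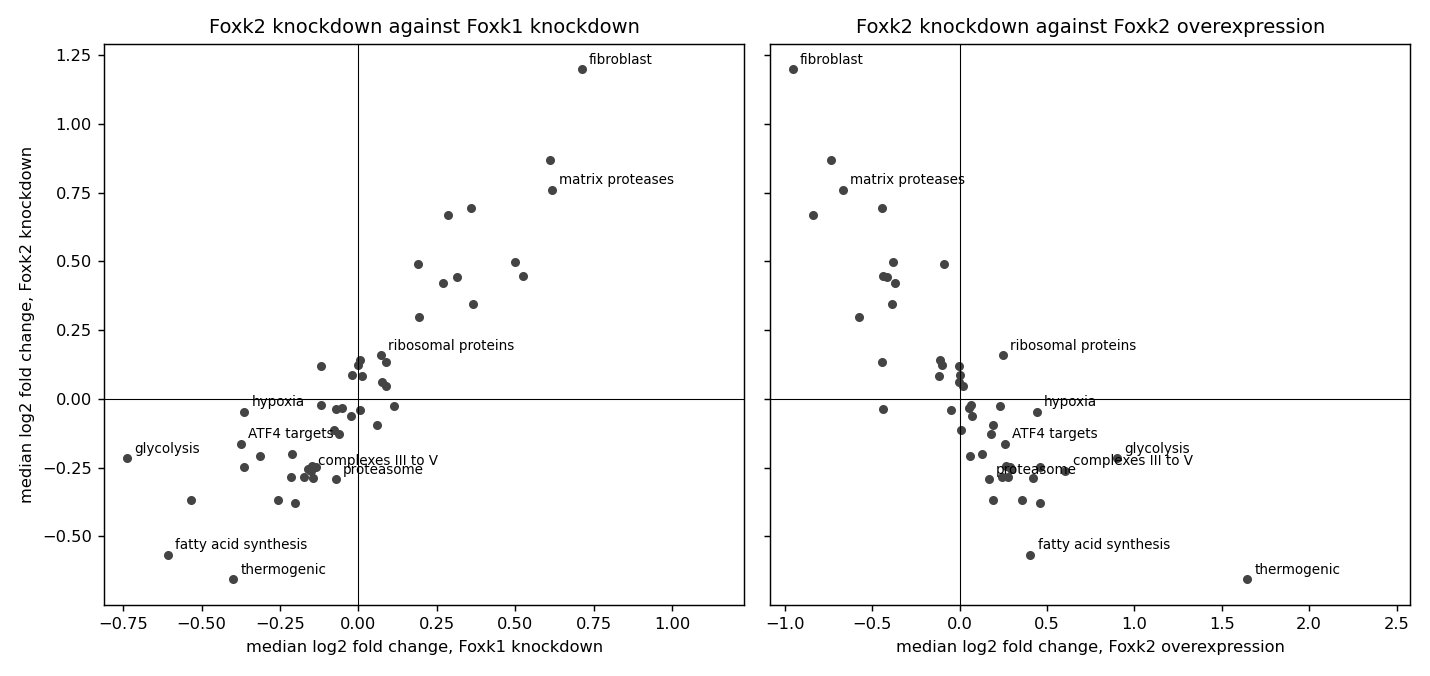
Median log2 fold change of 49 gene lists in Foxk2 knockdown (vertical axis) against Foxk1 knockdown (left) and Foxk2 overexpression (right), each relative to its own controls; 1 point per list. Fibroblast markers lie at 1.20 in Foxk2 knockdown, 0.71 in Foxk1 knockdown and -0.96 in overexpression, and glycolysis at -0.22, -0.74 and 0.90.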

How the data were processed

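The authors deposited 1 table of RPKM values for 20 libraries. The submitters' processing notes name the mm10 build, the aligner HISAT2 2.1.0, Picard 1.141, featureCounts from Subread 1.5.1 and edgeR. Strand is not stated, so overlapping and antisense genes cannot be told apart. Multiplied by the merged exon lengths of GENCODE M21, deposited RPKM values gave whole reads within 0.1 read, and hence the depths.

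Changes were measured on log2(RPKM + 0.5), where those of low genes are understated, and fitted in limma 3.58.1 (R 4.3.3) with 8 group means over 20 libraries (12 residual degrees of freedom, mean trend). Tests were two-sided with Benjamini-Hochberg adjustment over 13022 genes. The fit was tested on simulated data. Lists are described by counts and medians, and some of their members are not reported here.

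The members and lists were chosen with earlier results of these data known. Genes were named by size of change (15 per direction by fold, 6 by RPKM), at 2 RPKM and 20 reads or more in the higher group, with ranges apart and no predicted name. Added were up to 4 called members of smallest p per list, up to 5 called against its direction, and 5 per contrast of experiments. The rises outside the mitochondrial genome, further list members and genes with a promoter match were chosen after their values were seen. Counting intervals are not given, since replicate spread exceeds counting error (chi-square per degree of freedom 34.3 for knockdown and 11.4 for control replicates).

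Near-identical transcripts were searched with BLAST+ 2.17.0 (99% identity over 100 bases). Alternatives were 4 filters, 2 pseudocounts, 4 scalings, 2 smaller fits, a robust fit, a replicate block, recovered reads in voom, and leaving out each library. Figures used Python 3.11.15 and matplotlib 3.10.9.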

Additional observations from a re-analysis of the deposited data

Results flagged for a closer look

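The effects of Foxk2 and Foxk1 knockdown, each against its own controls, were called in opposite directions for 21 of the genes named, with a call for the difference as well, all in the same limma fit. Differences are Foxk2 minus Foxk1 knockdown on the log2 scale. They were positive for Foxk1 (1.53), Hsd11b1 (0.72), Pck2 (0.68), Lgals3 (0.60), Per2 (0.60), Plin4 (0.48), Eif4ebp1 (0.44), Slc1a4 (0.43), Akt1s1 (0.37), Lipe (0.32) and Hsp90ab1 (0.21). They were negative for Acsm3 (-1.58), Gbp2 (-1.22), Ubd (-1.18), Man1a (-0.88), Spp1 (-0.66), mt-Cytb (-0.63), Tgfbr2 (-0.57), Irf1 (-0.50), Pdia6 (-0.35) and Retsat (-0.22). Foxk1 is the gene targeted in the second experiment.

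Among them the interferon-linked genes Gbp2, Irf1 and Ubd were lower in Foxk2 knockdown and higher in Foxk1 knockdown: Gbp2 by -0.74 and 0.48, Irf1 by -0.25 and 0.26, Ubd by -0.49 and 0.69. The interferon list as a whole did not share this, with a median of 0.45 in Foxk2 and 0.52 in Foxk1 knockdown. The difference passed the test for 3 of its 30 tested members. Slc1a4 and Pck2, an amino acid carrier and the mitochondrial phosphoenolpyruvate carboxykinase, were at 0.20 and 0.17 with Foxk2 knockdown, against -0.22 and -0.50 with Foxk1 knockdown.

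Of these, 8 lost their call in Foxk2 knockdown when single libraries were left out. With 1 library left out the adjusted p reached 0.357 for Akt1s1, 0.222 for Plin4, 0.212 for Slc1a4, 0.157 for Pck2, 0.125 for Man1a, 0.104 for Retsat, 0.0942 for Hsp90ab1 and 0.0707 for Eif4ebp1. Other settings removed further calls in Foxk2 knockdown: those of Foxk1 and Lipe with the length and GC trend removed, and that of mt-Cytb after quantile normalization.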

How the results depend on the processing

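Of 283 genes named by the rules, 238 kept their call under every alternative fitted and 36 lost it when 1 library was left out. Reversed in sign, without a call, were H6pd (-0.023) and Polr1a (-0.037) with the length and GC trend removed, and Cd36 (-0.060) and Hsp90ab1 (-0.065) after quantile normalization. The cause was not tested. Genes called at least 2-fold higher were 499 with a pseudocount of 0.1 and 540 with voom on recovered reads. Those at least 2-fold lower were 97 with a pseudocount of 0.1, 39 with 1, 120 after quantile normalization and 135 with voom. With 1 library left out, calls numbered 4018 to 4385, of which 2143 to 2410 higher and 1875 to 2079 lower, with 308 to 333 at least 2-fold higher and 56 to 70 at least 2-fold lower. Genes that differed from Foxk1 knockdown were then 1327 to 1818, lowest without control replicate 2 (1327) and knockdown replicate 1 (1432), and those that differed from overexpression 6887 to 7095. A replicate block gave 5151 calls (2731 higher, 2420 lower), and 1925 genes that differed from Foxk1 knockdown. The labels give only the numbers, same-numbered libraries deviated with a correlation of -0.115, and 11 named genes lost their call under the block. Replicate spread exceeded counting error, with 2 libraries per group, and a gene that was not called may still differ.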

Other observations

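Some further groups were measured that the account above leaves out. Complement genes split, with 3 of 8 tested members higher and 3 lower: the classical pathway proteases C1s1 and C1ra had 11.5 and 14.8 RPKM in knockdown and 5.03 and 4.86 RPKM in control cells (1.31 ± 0.085) and 6.06 and 7.46 RPKM in knockdown and 2.73 and 3.04 RPKM in control cells (1.09 ± 0.092), while C4b had 3.62 and 4.56 RPKM in knockdown and 10.2 and 9.27 RPKM in control cells (-1.16 ± 0.12). Of 27 nuclear receptors 12 rose (44.4%) and 5 fell (18.5%), beside 22.1% and 19.9% of all genes. Vdr, the vitamin D receptor, had 8.95 and 9.33 RPKM in knockdown and 3.01 and 2.98 RPKM in control cells (log2 fold change 1.46 ± 0.088, adjusted p = 4.60e-09), Rarg rose by 0.68 ± 0.058 and Rxra by 0.37 ± 0.047, while Rxrg fell (-0.66 ± 0.13). Clock genes were called in 14 of 20 cases, 8 higher and 6 lower, none with a log2 change beyond -0.48 or 0.30.

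Lysosomal genes rose in 19 of 49 cases (38.8%) and fell in 12 (24.5%), beside 22.1% and 19.9% of all genes, so the falls were near that share. Ctsk, a collagen-degrading cathepsin, was at 11.7 and 14.7 RPKM in knockdown and 6.18 and 6.44 RPKM in control cells (1.000 ± 0.10). Autophagy genes were called in 17 of 45 cases, a share below the 42% of all genes, 13 of them lower, led by Wipi1 among the rises (0.68 ± 0.063) and Optn among the falls (-0.49 ± 0.068). In the NRF2, glutathione and thioredoxin list 15 of 38 fell (39.5%) and 8 rose (21.1%, near the 22.1% of all genes). Sod1 and Sod2, the cytosolic and mitochondrial superoxide dismutases, had 1014 and 937 RPKM in knockdown and 1267 and 1308 RPKM in control cells (-0.40 ± 0.046) and 47.1 and 43.8 RPKM in knockdown and 60.9 and 61.4 RPKM in control cells (-0.42 ± 0.046). Of 31 CDK inhibitors, D-type cyclins and p53 targets 11 rose (35.5%) and 7 fell (22.6%, near the 19.9% of all genes). Gadd45b was at 7.63 and 8.19 RPKM in knockdown and 3.19 and 2.94 RPKM in control cells (1.24 ± 0.14) and Tigar, which lowers fructose bisphosphate, at 5.14 and 5.03 RPKM in knockdown and 8.79 and 8.67 RPKM in control cells (-0.73 ± 0.084). Replication-dependent histone genes fell in 5 of 15 cases, and the share called in either direction, 40%, was near the 42% of all genes. Of the Hist1h2bc transcript 33.0% matches other histone genes, while Hist1h2bk, Hist1h1c and Hist2h4 had no match of at least 100 bases at 99% identity. Of the cell type lists outside fat and fibroblasts, Cd68 rose by 0.69 ± 0.12 and Cd14 by 0.84 ± 0.17, and Krt18 fell, with 0.683 and 0.703 RPKM in knockdown and 1.74 and 1.55 RPKM in control cells (-0.84 ± 0.12).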
